A study of Mus musculus with 6 samples.

Results

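The genes described here are 10 genes of antigen presentation by the class I major histocompatibility complex (MHC) in mouse ovary. They are the classical heavy chain genes H2-K1 and H2-D1, the Q-region genes H2-Q1, H2-Q2, H2-Q4, H2-Q6 and H2-Q7, the T-region genes H2-T24 and H2-T10, and the light chain gene B2m. They were listed by symbol and matched to Ensembl identifiers, and all 10 were found among the 55487 genes of the count table. The list was chosen by the counts of these same libraries, as genes that differed between genotypes in both directions. Their genotype differences are therefore given as descriptions, with no test.

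The study sequenced total RNA of whole ovaries at postnatal day 49, from 3 GalTKO samples and 3 wildtype samples. GalTKO samples are labelled GalT-/- and lack Galt, the galactose-1-phosphate uridylyltransferase of galactose breakdown. All 6 samples, wildtype included, came from the strain labelled cbl/6-ola/129 and from animals given food with 2.5% galactose for 4 weeks. The labels do not say whether a sample was 1 animal, so each p-value reflects how far these samples vary among themselves, which may be technical variation. The table counts reads per gene and not per allele, so the strain of origin of the MHC copies in each sample was not analysed here. For the class I genes, and for H2-Ea-ps and Cd1d2 described with them, a difference in RNA level and a difference between alleles in how their reads match the reference cannot be told apart. In a whole ovary, fewer cells of a type and less RNA per cell cannot be told apart.

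A class I molecule is a heavy chain paired with the light chain beta-2-microglobulin. Peptides cut by the proteasome are pumped into the endoplasmic reticulum by the Tap transporter, trimmed and loaded there, and shown at the cell surface to CD8 T cells. The classical heavy chains H2-K and H2-D are found on nearly all nucleated cells, and interferon raises them. The Q, T and M regions of the mouse MHC encode non-classical heavy chains, some of which are ligands of natural killer cells and gamma delta T cells.

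Library totals ran from 19232486 to 25729564 counts. Levels are given as CPM, counts scaled to the TMM-adjusted library total, unless stated otherwise. Galt had 0.155, 0.259 and 0 CPM in GalTKO replicates 1 to 3, against 17.8, 16.1 and 17.4 CPM in wildtype replicates 1 to 3, a log2 fold change of -6.82 ± 0.41 (SE) with an adjusted p of 0.000153 in the edgeR quasi-likelihood test. The 0 in GalTKO replicate 3 allows up to 0.156 CPM, the level of 3 counts. Of 16957 genes tested, 433 (2.55%) passed an adjusted p of 0.05, of which 191 (1.13%) were higher and 242 (1.43%) were lower in GalTKO. An unadjusted p under 0.05 in edgeR was found for 2898 (17.1%). All 16 markers of ovarian follicle and luteal cells were tested, so the libraries carry ovarian RNA. Among them Amh, a product of growing follicles, rose (adjusted p = 0.0214 in edgeR) and Star, the cholesterol carrier of steroidogenic cells, fell (adjusted p = 0.0263). GalTKO replicate 2 stood apart from the other GalTKO libraries in Cyp17a1 and Ptgfr, named after their values were seen. Cyp17a1, an androgen-making enzyme of theca cells, had 7.29 CPM there, against 399.7 and 296.0 CPM in GalTKO replicates 1 and 3. The prostaglandin F receptor gene Ptgfr had 204.3 CPM there, against 650.8 and 935.9 CPM. The steroidogenic marker Cyp19a1 was also lowest there, with 10.9 CPM against 48.5 and 28.6 CPM. Its wildtype libraries spread widely too, with 25.1, 14.25 and 55.05 CPM. The remaining steroidogenic markers did not set replicate 2 apart. The luteinizing hormone receptor gene Lhcgr had 236.0 CPM there, nearer to 352.0 CPM in replicate 1 than to 967.4 CPM in replicate 3. Star had 617 CPM there, against 626.2 and 968.6 CPM, and Cyp11a1 2862 CPM, against 3088 and 4294 CPM. Hsd3b1 had 4010 CPM there, between 2513 and 4398 CPM.

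The heavy chain genes are close copies of each other, which matters for how reads are assigned to them. Coding sequences of the 7 D, K and Q genes were 85.3% to 95.4% identical over their 21 pairs, with H2-Q6 and H2-Q7 the closest pair and H2-K1 and H2-Q2 the most distant. H2-D1 and H2-K1 were 91.4% identical. The 15 pairs with a T-region gene had 55.6% to 70.1% identity. The 60 coding bases most alike among the 7 genes lie in exon 4, where mean pairwise identity was 99.2%. H2-D1, H2-Q1, H2-Q6 and H2-Q7 have the same letters there as H2-K1 (chr17:33997374-33997433, minus strand, GRCm38). H2-Q4 has the same letters as H2-Q2 (chr17:35344882-35344941, plus strand), with 1 base, in capitals, that differs from H2-K1.
H2-K1: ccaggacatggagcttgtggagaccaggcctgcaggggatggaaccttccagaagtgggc
H2-Q2: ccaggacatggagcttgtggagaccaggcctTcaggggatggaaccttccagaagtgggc
The 60 coding bases least alike lie in exon 1 and encode the start of the signal peptide, with a mean identity of 78.4%. Capitals mark bases that differ from H2-K1. They number 5 in H2-D1, 15 in H2-Q1, 13 in H2-Q2, 20 in H2-Q4, 15 in H2-Q6 and 16 in H2-Q7. The H2-K1 window is at chr17:34000198-34000257 on the minus strand. On the plus strand are H2-D1 at chr17:35263123-35263182, H2-Q1 at chr17:35320562-35320621, H2-Q2 at chr17:35342333-35342392, H2-Q4 at chr17:35379644-35379703, H2-Q6 at chr17:35424877-35424936 and H2-Q7 at chr17:35439221-35439280.
H2-K1: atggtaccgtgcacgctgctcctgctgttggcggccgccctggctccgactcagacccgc
H2-D1: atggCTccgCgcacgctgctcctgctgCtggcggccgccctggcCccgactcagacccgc
H2-Q1: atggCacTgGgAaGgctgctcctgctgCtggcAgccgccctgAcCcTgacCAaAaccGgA
H2-Q2: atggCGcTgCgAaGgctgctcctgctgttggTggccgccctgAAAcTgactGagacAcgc
H2-Q4: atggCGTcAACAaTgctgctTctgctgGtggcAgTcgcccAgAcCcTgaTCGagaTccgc
H2-Q6: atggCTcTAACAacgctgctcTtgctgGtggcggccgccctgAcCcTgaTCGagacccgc
H2-Q7: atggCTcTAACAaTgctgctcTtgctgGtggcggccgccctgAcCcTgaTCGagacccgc

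A read that lies wholly within the exon 4 window cannot be placed among H2-K1, H2-D1, H2-Q1, H2-Q6 and H2-Q7 by sequence, whereas one that spans the exon 1 window can. Over all annotated exons, 9 of the 10 genes shared 50-base words with transcripts of another gene. The share was 50.4% of words in H2-T10, 36.4% in H2-Q4, 35.0% in H2-Q6, 26.5% in H2-Q7, 16.1% in H2-Q2, 15% in H2-Q1, 12.8% in H2-D1, 9.63% in H2-K1 and 3.17% in H2-T24. B2m shared none. The main partner of H2-T10 was H2-T22, which held 31.7% of its words. H2-Q1 and H2-Q2 were each other's main partner, with 9.05% of H2-Q1 words found in H2-Q2 and 12.9% of H2-Q2 words found in H2-Q1. H2-Q7 shared most with H2-Q10, at 14% of its words. The sources used here do not say how the authors counted reads that match several genes. Values of all these genes except B2m are uncertain to that extent. The words come from the reference strain, and alleles of other strains were not analysed here.

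**Figure D1:**
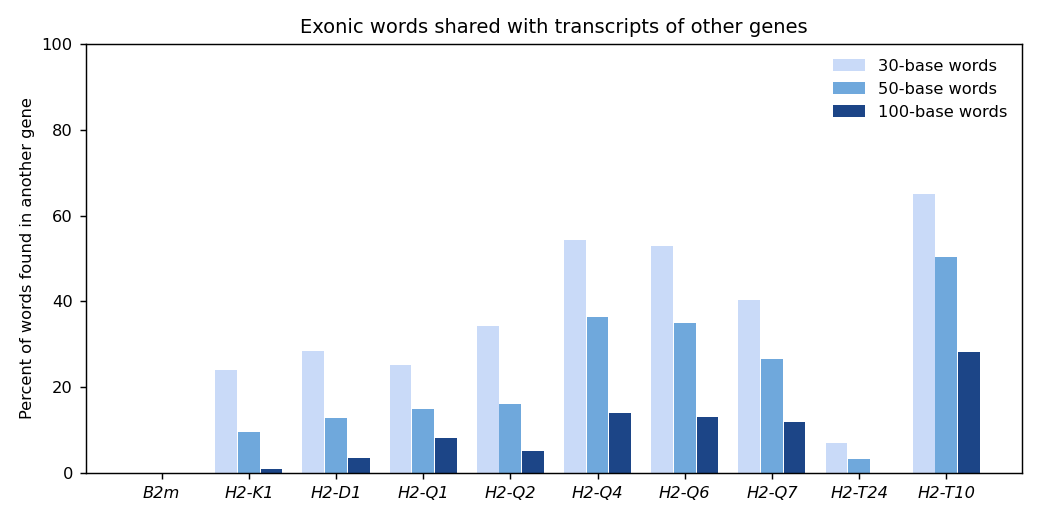
Share of each gene's annotated exonic words (percent, vertical axis) that also occur in a transcript of another gene, for words of 30, 50 and 100 bases (light to dark bars). B2m shares no word at any length, and H2-T10 shares most, with 65.0%, 50.4% and 28.1% of its words.

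The light chain and both classical heavy chains were lower in every GalTKO library than in any wildtype library. B2m (chr2:122147686-122153083, plus strand) encodes the light chain that all class I molecules share. It had 204.2, 238.3 and 190.9 CPM in GalTKO, against 265.4, 281.4 and 283.8 CPM in wildtype. Its means were 211.1 ± 24.4 CPM in GalTKO and 276.9 ± 9.98 CPM in wildtype (SD, n = 3 each), a log2 fold change of -0.39 ± 0.10 (SE). The groups lay closer together than for either classical heavy chain.

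H2-D1 (ENSMUSG00000073411, chr17:35262730-35267499, plus strand) encodes the H2-D heavy chain, which presents peptides to CD8 T cells. It had 51.2, 69.9 and 49.2 CPM in GalTKO, against 158.1, 150.0 and 153.6 CPM in wildtype. The GalTKO mean was 56.8 ± 11.4 CPM and the wildtype mean 153.9 ± 4.09 CPM (SD), a log2 fold change of -1.44 ± 0.14 (SE), or 0.369 of the wildtype level. H2-K1 (ENSMUSG00000061232, chr17:33996017-34000347, minus strand) encodes the H2-K heavy chain with the same role. It had 63.1, 88.7 and 63.1 CPM in GalTKO, against 124.5, 115.9 and 129.2 CPM in wildtype. The means were 71.7 ± 14.8 CPM in GalTKO and 123.2 ± 6.74 CPM in wildtype (SD), and the log2 fold change was -0.78 ± 0.14 (SE). GalTKO replicate 2 stood above the other GalTKO libraries for both genes, yet below every wildtype library.

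The balance of the classical heavy chains also differed between genotypes. There were 0.812, 0.788 and 0.780 counts of H2-D1 per H2-K1 count in GalTKO, against 1.27, 1.29 and 1.19 in wildtype. Per kilobase of exon, H2-K1 had the higher level in each GalTKO library, and H2-D1 in each wildtype library. Both were also lower relative to the light chain. H2-D1 had 0.251, 0.293 and 0.258 counts per B2m count in GalTKO, against 0.596, 0.533 and 0.541 in wildtype. H2-K1 had 0.309, 0.372 and 0.331 in GalTKO, against 0.469, 0.412 and 0.455 in wildtype.

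**Figure D2:**
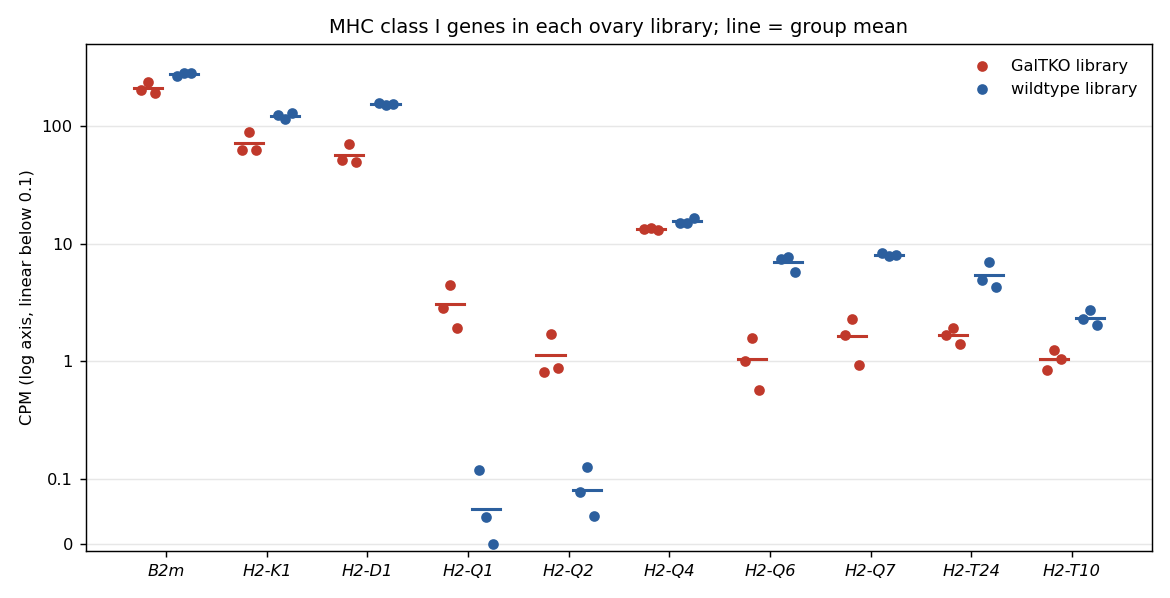
Level of the 10 class I genes in each ovary library (CPM, log axis that is linear below 0.1), with 3 GalTKO libraries in red left of 3 wildtype libraries in blue and a line at each group mean. H2-Q1 and H2-Q2 are higher in every GalTKO library, the other 8 genes are lower in every GalTKO library, where 11.8% of all tested genes lie above and 12% below without overlap. H2-Q4 and B2m show the closest groups.

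In the Q region, neighbouring genes differed between genotypes in opposite directions. The 5 genes lie in the order H2-Q1, H2-Q2, H2-Q4, H2-Q6 and H2-Q7, from 1320.1 to 1438.8 kb beyond the H2-K1 start. The first and second were at or near 0 in wildtype and present in GalTKO, the middle gene was close between genotypes, and the last pair was lower in GalTKO.

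H2-Q1 (ENSMUSG00000079507, chr17:35320405-35325099, plus strand), a non-classical heavy chain gene, had 74, 104 and 37 counts in GalTKO, against 3, 1 and 0 counts in wildtype. That is 2.86, 4.49 and 1.93 CPM in GalTKO, against 0.120, 0.0423 and 0 CPM in wildtype, where the 0 allows up to 0.130 CPM. All wildtype values lie at or below the level of 3 counts. Its summed counts, 215 in GalTKO and 4 in wildtype, stand in a ratio of 56.5 per scaled library, with a 95% interval of 21.8 to 209 that covers counting error only. H2-Q2 (ENSMUSG00000091705, chr17:35342242-35346762, plus strand), the next gene, had 21, 40 and 17 counts in GalTKO, against 2, 3 and 1 in wildtype. Its levels were 1.14 ± 0.507 CPM in GalTKO and 0.0834 ± 0.0419 CPM in wildtype (SD). The summed counts were 78 in GalTKO and 6 in wildtype, a ratio of 13.7 with a counting interval of 6.01 to 38.4. Both genes passed the filter on low counts only through their GalTKO libraries.

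H2-Q4 (ENSMUSG00000035929, chr17:35379617-35385290, plus strand), a non-classical heavy chain gene, differed least of the 10. It had 13.3, 13.6 and 13.2 CPM in GalTKO, against 15.15, 14.9 and 16.7 CPM in wildtype. The groups did not overlap, but the log2 fold change was -0.22 ± 0.11 (SE). Its GalTKO libraries were also the most alike of any of the 10 genes, with an SD of 0.025 on the log2 CPM scale, where the median gene had 0.201.

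H2-Q6 and H2-Q7 encode Qa-2, a class Ib antigen that is attached to the membrane by a lipid anchor and, in early embryos, is known as the product of the Ped gene. H2-Q6 (ENSMUSG00000073409, chr17:35424850-35430055, plus strand) had 1.01, 1.596 and 0.573 CPM in GalTKO, against 7.44, 7.66 and 5.80 CPM in wildtype. Its log2 fold change, -2.70 ± 0.33 (SE), was the furthest below 0 of the 10, at 0.154 of the wildtype level. H2-Q7 (ENSMUSG00000060550, chr17:35439155-35443773, plus strand) had 1.66, 2.29 and 0.937 CPM in GalTKO, against 8.36, 7.82 and 8.10 CPM in wildtype, a log2 fold change of -2.30 ± 0.29 (SE). The 2 groups were far apart for both genes, and GalTKO replicate 3 was lowest each time. There were 0.605, 0.698 and 0.611 counts of H2-Q6 per H2-Q7 count in GalTKO, against 0.890, 0.978 and 0.717 in wildtype. H2-Q1 had 172.1, 196.2 and 205.6 counts per 100 counts of H2-Q7 in GalTKO, against 1.44, 0.541 and 0 in wildtype.

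The T-region genes were lower in GalTKO by amounts between those of H2-K1 and H2-Q7. H2-T24 (ENSMUSG00000053835, chr17:36005695-36020560, minus strand), a non-classical heavy chain gene, had 1.66, 1.94 and 1.41 CPM in GalTKO, against 4.88, 7.02 and 4.33 CPM in wildtype. The means were 1.67 ± 0.268 CPM in GalTKO and 5.41 ± 1.42 CPM in wildtype (SD), and the log2 fold change was -1.69 ± 0.26 (SE). H2-T10 (ENSMUSG00000079491, chr17:36115876-36121465, minus strand) encodes a class Ib protein bound by some gamma delta T cells and is annotated as a polymorphic pseudogene, a gene broken in some strains and intact in others. It had 0.852, 1.25 and 1.04 CPM in GalTKO, against 2.28, 2.75 and 2.04 CPM in wildtype, a log2 fold change of -1.17 ± 0.28 (SE). Its main word-sharing partner, H2-T22, did not pass the test and had a positive log2 fold change of 0.32 ± 0.16 (SE, adjusted p = 0.341 in edgeR).

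In all, 2 of the 10 genes were above and 8 were below wildtype in every GalTKO library, a pattern that the choice of genes used. Over all 16957 tested genes, the groups did not overlap for 23.7%, with GalTKO above for 11.8% and below for 12%. Within GalTKO, replicate 2 was highest for all 10 genes, replicate 3 was lowest for 7 and replicate 1 was lowest for 3. Over all tested genes, replicate 2 was the highest GalTKO library for 35.4%. The low Cyp17a1 and Ptgfr levels of that library stand beside these values, and their part in them was not tested. Without it, the log2 fold change was -1.61 for H2-D1, -0.97 for H2-K1, -3.10 for H2-Q6, -2.61 for H2-Q7, -0.49 for B2m and 3.26 for H2-Q2. In wildtype the highest library was replicate 1 for 3 genes, replicate 2 for 4 and replicate 3 for 3. The SD of log2 CPM was larger within GalTKO than within wildtype for 7 of the 10 genes and smaller for H2-Q1, H2-Q4 and H2-T24. For H2-Q7 it was 0.615 in GalTKO and 0.047 in wildtype, and for H2-D1 it was 0.277 in GalTKO and 0.038 in wildtype, beside medians over all genes of 0.201 in GalTKO and 0.143 in wildtype.

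Per kilobase of annotated exon, the order of the levels differed between genotypes. In GalTKO, B2m led with 245.5 CPM per kb, followed by H2-K1 with 24.4, H2-D1 with 22.03 and H2-Q4 with 5.15. The rest were H2-Q1 with 1.08, H2-T24 with 0.766, H2-Q2 with 0.523, H2-Q6 with 0.508, H2-Q7 with 0.382 and H2-T10 with 0.307 CPM per kb. Each neighbouring pair from H2-Q1 down overlapped between libraries, as did H2-K1 and H2-D1. In wildtype, B2m had 321.9 CPM per kb, H2-D1 59.7, H2-K1 41.9, H2-Q4 6.01, H2-Q6 3.34, H2-T24 2.48, H2-Q7 1.90, H2-T10 0.689, H2-Q2 0.0382 and H2-Q1 0.0189. There H2-Q6 overlapped with H2-T24, and H2-Q2 with H2-Q1. H2-Q1 was thus the fifth gene by level in GalTKO and the last in wildtype.

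Summed over 30 annotated class I heavy chain genes, members included, the level was 233.3, 294.9 and 246.5 CPM in GalTKO, against 409.0, 410.3 and 428.5 CPM in wildtype. H2-D1 made up 22%, 23.7% and 20% of these counts in GalTKO, against 38.7%, 36.6% and 35.8% in wildtype. H2-K1 took similar shares, 27%, 30.1% and 25.6% in GalTKO and 30.4%, 28.2% and 30.1% in wildtype. T-region genes made up 34.9%, 31.8% and 39.8% in GalTKO, against 18.7%, 22.6% and 22.8% in wildtype. The larger T share stands beside a smaller sum. H2-D1 and H2-K1 account for most of that difference in the sum, while H2-T22 and H2-T23 of the T region did not pass the test. The Wilson 95% interval of each share is at most 1.39 percentage points either way and covers counting error only.

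**Figure D3:**
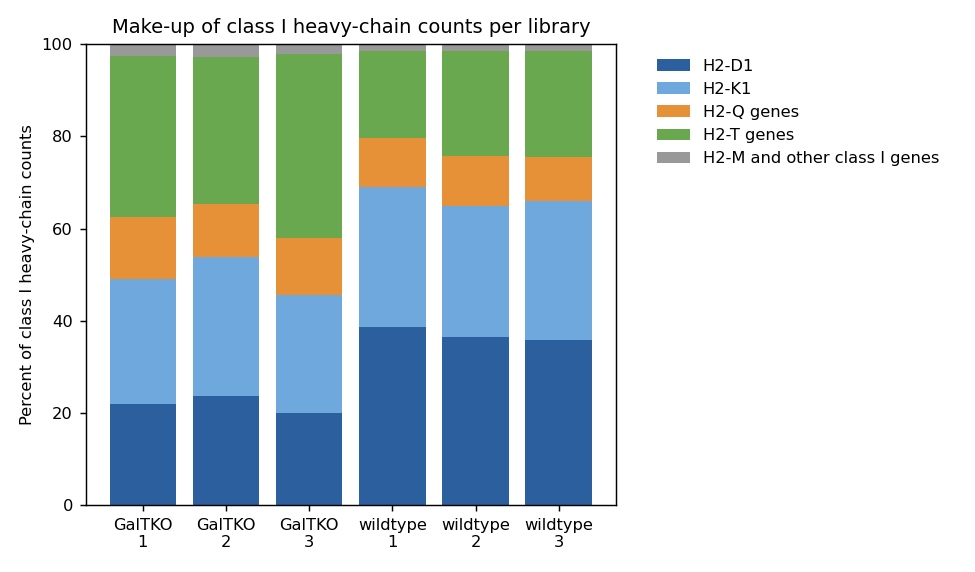
Make-up of the counts of 30 class I heavy chain genes in each library (percent of their sum, vertical axis), with 3 GalTKO libraries left of 3 wildtype libraries. The H2-D1 band spans 20% to 23.7% in GalTKO libraries and 35.8% to 38.7% in wildtype libraries, and the H2-T band 31.8% to 39.8% in GalTKO and 18.7% to 22.8% in wildtype.

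Promoters of the members hold short elements known from class I control, which are shown here because neighbouring Q genes differ in them. A kappaB site binds NF-kappaB, an interferon element binds interferon regulatory factors, and NLRC5 acts through a box module that holds CRE-like and inverted CCAAT parts. RefSeq promoter windows (GRCm38.p6, 250 bases before to 50 after a start) were found for 7 of the 10 genes, not for H2-Q1, H2-T24 or H2-T10. The 130-base parts of these windows below run 5′ to 3′ on the gene's strand. They lie at chr17:34000339-34000468 on the minus strand (H2-K1) and, on the plus strand, at chr17:35424666-35424795 (H2-Q6), chr17:35439010-35439139 (H2-Q7), chr17:35342121-35342250 (H2-Q2) and chr2:122147529-122147658 (B2m). Capitals mark matches, on either strand, to GGGNNTTCC (kappaB), GAANNGAAA and GAAANNGAA (interferon elements), TGACG (CRE core) and ATTGG (inverted CCAAT), and none of these matches overlap.
H2-K1: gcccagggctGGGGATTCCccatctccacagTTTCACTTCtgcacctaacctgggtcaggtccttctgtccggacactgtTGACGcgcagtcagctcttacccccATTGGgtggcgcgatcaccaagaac
H2-Q6: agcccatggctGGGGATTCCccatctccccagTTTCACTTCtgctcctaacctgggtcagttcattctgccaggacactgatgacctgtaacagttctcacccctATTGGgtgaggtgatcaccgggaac
H2-Q7: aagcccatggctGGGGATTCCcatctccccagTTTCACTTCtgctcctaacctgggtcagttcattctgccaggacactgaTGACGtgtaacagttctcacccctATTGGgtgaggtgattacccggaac
H2-Q2: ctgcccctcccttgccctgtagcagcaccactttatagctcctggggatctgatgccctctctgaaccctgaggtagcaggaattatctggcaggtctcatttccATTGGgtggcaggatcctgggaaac
B2m: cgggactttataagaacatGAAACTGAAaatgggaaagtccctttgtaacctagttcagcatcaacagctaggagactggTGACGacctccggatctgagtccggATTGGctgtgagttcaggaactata
The letters searched were chosen after these windows had been read, and a match is a description.

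The kappaB and GAANNGAAA letters stood next to each other in the windows of H2-K1, H2-D1, H2-Q4, H2-Q6 and H2-Q7. Over 32851 promoter windows of the same length, 5.82% held the kappaB letters and 7.52% held GAANNGAAA. B2m had GAAANNGAA, found in 8.56% of windows. TGACG, in 20.8% of windows, was found in those of B2m, H2-D1, H2-K1, H2-Q4 and H2-Q7. ATTGG, in 37.4%, was found in all 7. The H2-Q2 window, of a gene higher in GalTKO, held only ATTGG among these letters. H2-Q4 and H2-D1 held the same 4 kinds of element, but not in the same order. On the gene's strand, TGACG stood before ATTGG in H2-D1, at -101 and -76 from the start. In H2-Q4 it stood after ATTGG, at -73 and -79. In H2-D1 and H2-Q4, all 130 bases of the part that holds these elements lie within annotated exons, counted over genes of either strand. That number was 9 in H2-K1 and H2-Q2 and 0 in H2-Q6, H2-Q7 and B2m. Whether these elements bear on the levels was not tested.

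By Euclidean distance between mean-centred log2 CPM profiles over the 6 libraries, the genes most like H2-Q1 were Rnase1 (distance 1), Adamdec1 (1.1) and Rps26-ps1 (1.33). Rnase1, a secreted ribonuclease gene, had 7.39 ± 1.02 CPM in GalTKO and 0.306 ± 0.0410 CPM in wildtype (SD). Rps26-ps1, a processed pseudogene, had 119.1 ± 9.35 CPM in GalTKO and 4.66 ± 0.924 CPM in wildtype. The genes most like H2-Q6 were H2-Q7 (0.582), the non-coding Gm34590 (0.682) and Dok6 (0.741). Dok6, which encodes an adaptor of receptor tyrosine kinases, had 4.05 ± 0.758 CPM in GalTKO and 22.8 ± 0.867 CPM in wildtype.

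None of the other class I heavy chain genes that could be tested passed. The members were taken from the same family for differing in these libraries. What the remaining genes show is therefore partly set by that choice, and is a description. The list of other class I genes had 32 entries, of which 21 were in the table, 10 had no count in any library and 5 were tested. In edgeR, 0 of the 5 passed an adjusted p of 0.05, beside 2.55% of all tested genes. An unadjusted p under 0.05 was found for 0 of the 5, beside 17.1% of all tested genes. DESeq2 and limma voom also called 0. H2-T23 encodes Qa-1, which shows a leader peptide of classical heavy chains to NK cell receptors, and it had 52.1 ± 8.51 CPM in GalTKO and 52.1 ± 7.18 CPM in wildtype (SD). H2-T22 encodes a ligand of gamma delta T cells and had 36.3 ± 6.30 CPM in GalTKO and 29.0 ± 4.49 CPM in wildtype. H2-Q10 encodes a secreted heavy chain. It had 11.6 ± 1.35 CPM in GalTKO and 12.2 ± 1.62 CPM in wildtype, a log2 fold change of -0.07 ± 0.15 (SE, adjusted p = 0.851 in edgeR). H2-M5 had 0.684 ± 0.833 CPM in GalTKO and 0.909 ± 0.391 CPM in wildtype.

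A pair of genes too low for the test was named after their values were seen. H2-K2, a pseudogene beside H2-K1, had 13, 16 and 4 counts in GalTKO, against 2, 1 and 0 in wildtype. H2-Q5, a polymorphic pseudogene between H2-Q4 and H2-Q6, had 0, 1 and 0 counts in GalTKO, against 5, 20 and 7 in wildtype. With no filter on low counts, both passed, with a log2 fold change of 3.34 and an adjusted p of 0.0220 for H2-K2, and of -4.51 and 0.00926 for H2-Q5.

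Class I-like genes outside the MHC use the same fold for other tasks, and 11 of 14 in the table were tested. Cd1d2, a lipid-presenting CD1 gene annotated as a polymorphic pseudogene, rose. It had 1.55, 3.02 and 2.08 CPM in GalTKO, against 0.0800, 0.212 and 0 CPM in wildtype, a log2 fold change of 4.43 ± 0.65 (SE, adjusted p = 0.0128 in edgeR). Without wildtype replicate 1 the adjusted p was 0.0735, within a range of 7.8e-08 to 0.0735 over all settings tried. Like H2-Q1 and H2-Q2, it passed the filter on low counts only through its GalTKO libraries. The other 10 did not pass, and the list median was 0.31, beside 0.02 over all tested genes.

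Most genes that supply, load or control class I molecules did not pass the test. Of 52 tested in the lists of loading, proteasome, transcription factor and interferon signalling genes, 2 fell and 0 rose. Over all tested genes, 1.43% fell and 1.13% rose, so a count of 2 is no result about the pathway. Psmb5, a catalytic subunit of the standard proteasome, had 51.9, 52.7 and 49.1 CPM in GalTKO, against 75.9, 72.5 and 91.9 CPM in wildtype. Its log2 fold change was -0.64 ± 0.11 (SE, adjusted p = 0.0208 in edgeR). Rfxank, a subunit of the RFX complex that binds MHC promoters, had 16.8, 17.3 and 14.2 CPM in GalTKO, against 23.9, 24.7 and 24.8 CPM in wildtype, with -0.60 ± 0.11 (SE, adjusted p = 0.0322). The groups did not overlap for either gene. Psmb5 did not pass without GalTKO replicate 1, GalTKO replicate 3 or wildtype replicate 1, and Rfxank without any library other than GalTKO replicate 2.

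The 12 loading genes had a median log2 fold change of -0.05. In edgeR 0 passed, and 3 had an unadjusted p under 0.05, as had 17.1% of all tested genes. Tap1, a subunit of the peptide transporter, had 14.6 ± 1.49 CPM in GalTKO and 22.6 ± 5.62 CPM in wildtype (SD), with -0.62 ± 0.18 (SE, adjusted p = 0.129). It passed with DESeq2 (adjusted p = 0.0392) and in edgeR when low counts were not filtered out (adjusted p = 0.0190). Sec61b, part of the translocon, had 56.9 ± 6.75 CPM in GalTKO and 45.8 ± 1.58 CPM in wildtype, with 0.31 ± 0.10 (SE, adjusted p = 0.178). The median was -0.04 over 14 proteasome and peptidase genes and -0.07 over 14 transcription factor genes. An unadjusted p under 0.05 in edgeR was found for 2 of the former and 6 of the latter. Among the latter, 2 were named after their values were seen. Irf8 had a log2 fold change of -0.60 ± 0.14 (SE, adjusted p = 0.0732), and Rfx5 had 0.37 ± 0.11 (SE, adjusted p = 0.134). In edgeR 0 of 12 interferon signalling genes passed, 1 had an unadjusted p under 0.05, and the median was -0.05. That gene was Irf9, part of the interferon-stimulated factor ISGF3, at 18.2 ± 4.04 CPM in GalTKO and 29.8 ± 9.24 CPM in wildtype (adjusted p = 0.212). Nlrc5, the transactivator of class I genes, was named after its value was seen and had 4.38 ± 1.56 CPM in GalTKO and 6.05 ± 0.695 CPM in wildtype, with -0.47 ± 0.27 (SE, adjusted p = 0.427).

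**Figure D4:**
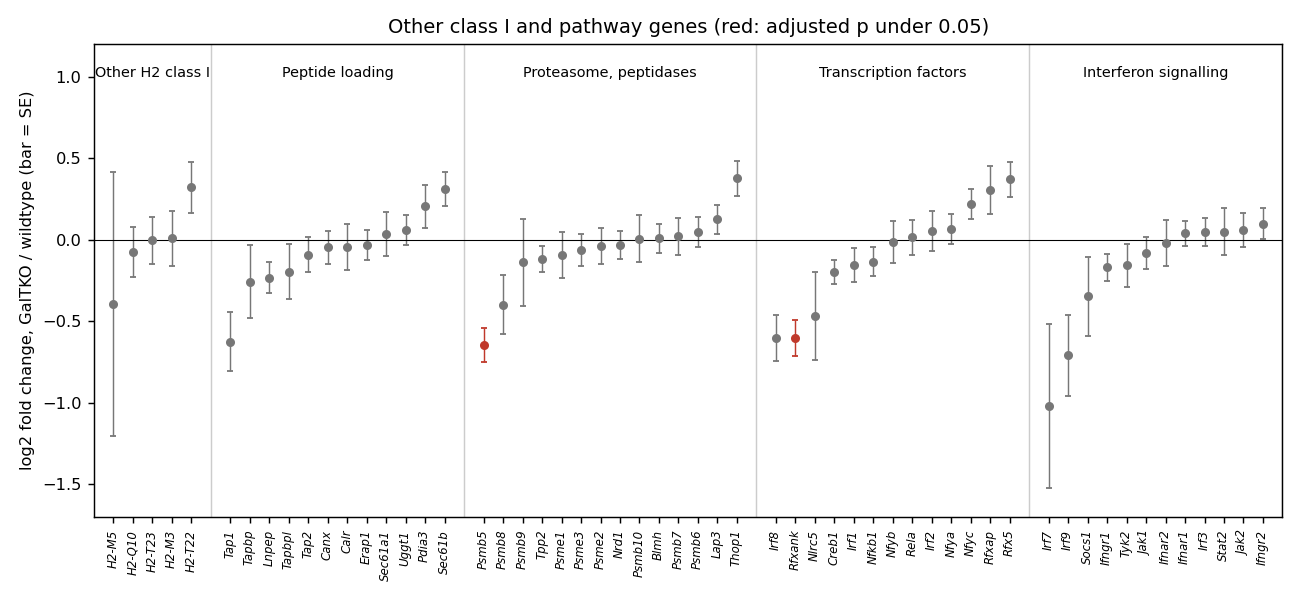
Log2 fold change of GalTKO over wildtype (vertical axis, bar = SE) for the tested other class I genes and 4 pathway lists, genes ordered by value within a list, with 1 transcription factor gene not drawn. Psmb5 and Rfxank, in red, are the 2 genes with an adjusted p under 0.05, and the medians of the 4 pathway lists lie between -0.07 and -0.04.

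Most receptors that read class I molecules had too few counts for the test. Of the 13 that the table holds, 3 were tested and 0 passed in edgeR. An unadjusted p under 0.05 was found for 1, Pirb, and for 17.1% of all tested genes. Pirb, an inhibitory receptor of myeloid and B cells, had 2.71 ± 0.810 CPM in GalTKO and 5.0 ± 1.10 CPM in wildtype (SD, adjusted p = 0.163). The CD8 coreceptor gene Cd8a, named after its value was seen, had 0.271, 0 and 0.104 CPM in GalTKO, against 0.2, 0.127 and 0.260 CPM in wildtype.

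Markers of other cell types were also lower in GalTKO in sum. This held for the 16 ovarian follicle and luteal markers too, at 11150, 11170 and 14930 CPM in GalTKO, against 15700, 16750 and 21780 CPM in wildtype. Of these 16, 12 had negative and 4 had positive log2 fold changes. All 15 macrophage and dendritic cell markers had negative log2 fold changes, 7 fell and 0 rose, and the median was -0.75. Over all tested genes, 1.43% fell and 1.13% rose. Ctss, a lysosomal protease of antigen-presenting cells, fell to 27.2 ± 5.21 CPM in GalTKO, against 60.6 ± 8.31 CPM in wildtype (SD, adjusted p = 0.00867 in edgeR), and Csf1r, the macrophage growth factor receptor, fell by 0.58 ± 0.10 (SE) on the log2 scale (adjusted p = 0.0233). The summed level of these markers was 345.1, 349.4 and 314.0 CPM in GalTKO, against 573.4, 595.0 and 494.0 CPM in wildtype. Of 9 endothelial markers, Kdr (adjusted p = 0.00769 in edgeR) and Pecam1 (adjusted p = 0.0441) fell, beside the same 1.43% of all tested genes. The summed endothelial level was 533.3, 617.6 and 555.9 CPM in GalTKO, against 680.7, 764.7 and 828.9 CPM in wildtype. For T, NK and B cells, 10 of 15 markers were tested and 0 passed in edgeR. An unadjusted p under 0.05 was found for 2 of them, and for 17.1% of all tested genes. The sum of all 15 was 19.7, 14.2 and 15.9 CPM in GalTKO, against 23.9, 23.5 and 23.6 CPM in wildtype. No marker in the macrophage, endothelial and lymphocyte lists was at 0 in all libraries. Their part in the class I levels was not tested. GalTKO replicate 2, highest for all 10 class I genes, was also the highest GalTKO library in the macrophage and endothelial sums but the lowest in the lymphocyte sum. The macrophage sum was close to that of replicate 1, and its markers went both ways. Replicate 2 was the highest GalTKO library for Lyz2 and Ctss and the lowest for Csf1r and C1qb. In the lymphocyte sum the largest part was Ptprc, with 6.47 CPM in replicate 2 and 8.59 CPM in replicate 3. Between these libraries Ptprc differed by more than the whole sum did.

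The 9 members on chromosome 17 span 2.13 Mb of the MHC (chr17:33996017-36121465, GRCm38). Of 96 other tested genes in it, 4 changed (4.17%), against 11 of 695 (1.58%) on the rest of the chromosome and 2.55% of all genes. With 2 Mb added at each end, 4 of 159 (2.52%) had changed. H2-Ab1 and H2-Eb1, class II genes of antigen-presenting cells, fell by 0.83 ± 0.15 and 0.81 ± 0.16 (SE) on the log2 scale (adjusted p = 0.03 and 0.0438 in edgeR). Ier3, an immediate early response gene, had 11.1 ± 2.13 CPM in GalTKO and 6.13 ± 0.203 CPM in wildtype (SD, adjusted p = 0.0440). H2-Ea-ps, a class II polymorphic pseudogene, had 261, 171 and 185 counts in GalTKO and 0 in every wildtype library. H2-Ea-ps too passed the filter only through GalTKO, and it is 1 of the 4 genes in the shares above. Those shares are therefore partly set by the filter and are a description. Without GalTKO replicate 3 or any 1 wildtype library, H2-Ea-ps alone passed.

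**Figure D5:**
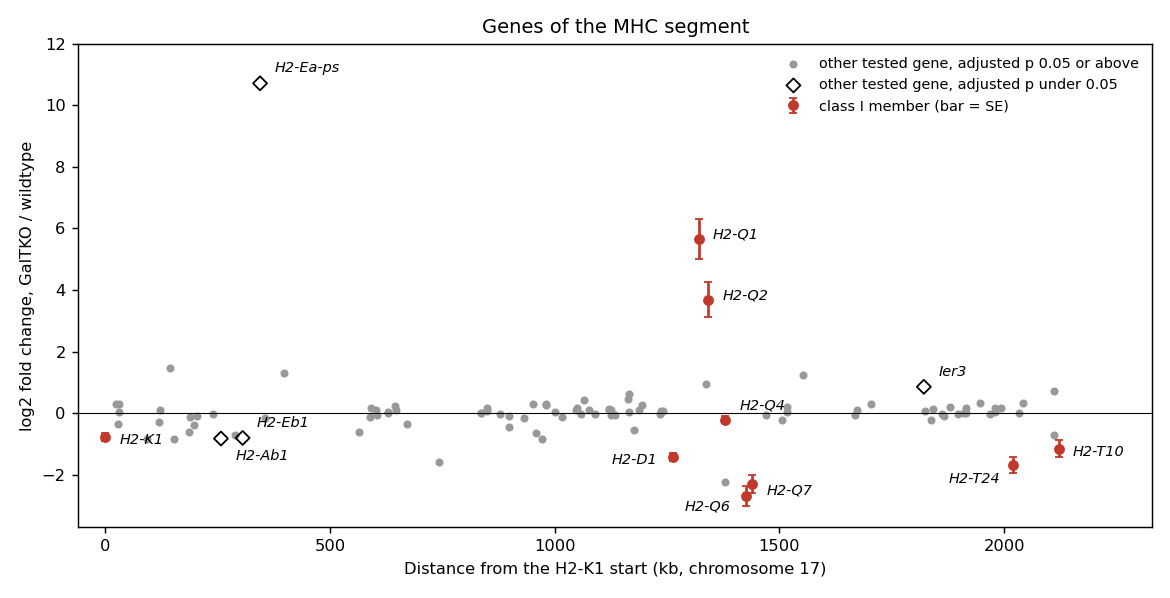
Log2 fold change of GalTKO over wildtype (vertical axis) against distance from the H2-K1 start (kb, chromosome 17) for tested genes of the MHC segment. Class I members are red with SE bars, other genes with an adjusted p under 0.05 are open diamonds and the rest are grey. H2-Q1 (5.67) and H2-Q2 (3.69) stand above 0 on the same stretch as H2-Q6 (-2.70) and H2-Q7 (-2.30), and H2-Ea-ps is the only gene above H2-Q1.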

How the data were processed

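RNA of 6 ovary samples (3 GalTKO, 3 wildtype) was measured. The authors deposited raw counts per Ensembl gene, not normalized. Per the labels' protocols, ribosomal RNA was removed and stranded total RNA libraries were made. Per the submitters' processing notes, STAR 2.7.6a, cutadapt 1.16, DESeq2 1.30.1 and featureCounts 1.6.3 were used on GRCm38. The sources used here do not give the annotation, the strand setting or what was done with multi-mapping reads.

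Names and coordinates came from GENCODE M21 (GRCm38), which matched 55227 of 55487 identifiers. Counts were tested in R 4.3.3 with edgeR 4.0.16: filterByExpr (minimum count 10, minimum total 15) kept 16957 genes, TMM set the scale of each library, and robust quasi-likelihood fits on genotype alone gave two-sided p-values, adjusted by Benjamini-Hochberg over all genes tested. The SE of a log2 fold change is its size over the square root of F. Intervals are at 95%, and a count of 0 was taken to allow 3 counts; both cover counting error only. Coding sequences were aligned with MAFFT 7.526. Alternatives were other scalings, DESeq2 1.42.0, limma 3.58.1 voom, other low-count filters, a replicate block and each library left out. Each pair of libraries of the same genotype differed beyond sampling noise (chi-square over degrees of freedom 12.2 to 49.6). The fit was tested on simulated data.

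The members and the gene lists were chosen with earlier results of these data known. Text names all members, Galt, genes past the threshold or with the smallest p in each list, changed genes of the MHC segment, and 3 genes of like pattern for H2-Q1 and H2-Q6. In the transcription factor list 1 gene is counted but not reported here by name.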

Additional observations from a re-analysis of the deposited data

How the results depend on the processing

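Of the log2 fold changes of the 10 members, 128 values under other settings moved by less than the spread between replicates. The other was H2-Q1 without wildtype replicate 1, at 6.86 beside 5.67, with a range of 5.15 to 6.86 over libraries left out. With at least 1 CPM in 3 libraries required, 1 member, H2-Q1, was higher among 9 tested, since that filter removes H2-Q2. The 433 changed genes became 1049 with DESeq2, 877 with no filter on low counts, 400 (195 higher, 205 lower) with upper-quartile scaling and 165 to 742 with a library left out, and the median of all genes moved to at most 0.04 under any setting. The 2 pathway genes became 5 with DESeq2, 5 with no filter and 0 to 5 with a library left out. The 4 changed genes of the MHC segment became 10 with DESeq2, 9 with no filter and 1 to 7 with a library left out. The 0 other class I genes became 2 with no filter, H2-K2 and H2-Q5, which the main filter leaves out. Fcgrt, the neonatal Fc receptor, stood at 0.10 ± 0.33 (SE) on the log2 scale and at -0.415 without GalTKO replicate 2 (adjusted p = 0.0344 in edgeR), within a range of -0.415 to 0.303 over libraries left out. The cause of these changes was not tested.

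Same-numbered GalTKO and wildtype libraries deviated together with correlations of 0.093, -0.04 and 0.078, so the replicate numbers were not taken as pairs. With the replicate number as a block, 321 genes changed, with 0 pathway genes, 1 gene of the MHC segment and 0 other class I genes, and H2-Q1 and H2-Q2 stayed higher in GalTKO. The adjusted p under the block was 0.0518 for Psmb5 and 0.0671 for Rfxank in edgeR.

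Of single genes outside the members, 931 values under other settings kept their side of the threshold, with sign changes only where neither fit made a call, 29 lost a call, 11 gained one in the same direction, and 1, that of Fcgrt above, gained one in the other direction. The gained calls include Tap1 and Irf8 with DESeq2 and with no filter. Levels at 1 to 3 counts, as for H2-Q1 and H2-Q2 in wildtype, limit any fold to its counting interval.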
